A study of Mus musculus with 6 samples.

Results

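miR-204-5p and miR-211-5p (mmu-miR-204-5p and mmu-miR-211-5p on the array) are mature miRNAs that share their seed, and miR-211-3p (mmu-miR-211-3p) is the opposite arm of the miR-211 hairpin, with a seed of its own. These 3 miRNAs were taken by name from the 1247 mouse miRNAs on the array, and the probes of each were kept apart. They were chosen by their measured signal in the 2 cell populations compared, so that difference is described here without a test. miR-204-3p, the opposite arm of miR-204, was also on the array and is given beside them.

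Small-RNA-enriched total RNA of sorted mammary cells from virgin, wild-type mice of the strain FVB/N-J was labelled with Cy3 and hybridised to Agilent miRNA arrays, 3 for each of 2 populations. P4 was the lineage-negative, CD24-positive gate with high CD29 (integrin beta 1), which the labels call enriched for mammary stem cells (MaSC). As background, basal (myoepithelial) cells also fall in this gate. P5 was the lineage-negative, CD24-positive gate with low CD29, which the labels call luminal enriched in one field and luminal progenitor enriched in another. The labels name no transgene and no treatment for either group. The age and number of the mice, and whether replicates came from separate sorts, are not given in the sources used here, so the spread between arrays may be technical.

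A miRNA finds its targets chiefly by pairing of its seed, bases 2 to 8 from the 5′ end, with messenger RNAs, so miRNAs with 1 seed can repress overlapping sets of genes. miR-204 is known from the retinal pigment epithelium, the lens and the choroid plexus, and represses Runx2 and Meis2, both transcription factors. miR-211 is known from melanocytes, where the factor MITF drives its host gene Trpm1. The messenger RNAs of these targets were not measured here.

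The mature sequences show how near the first 2 are to each other and how far miR-211-3p is from both, with the seed in capitals:
miR-204-5p: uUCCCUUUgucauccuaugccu
miR-211-5p: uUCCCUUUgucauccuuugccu
miR-211-3p: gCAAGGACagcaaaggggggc
miR-204-3p: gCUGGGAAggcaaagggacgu
The sequences are those of RefSeq on the mouse build GRCm38.p6. miR-204-5p and miR-211-5p match at 21 of 22 positions and differ by A17U (miR-204-5p first, positions counted from 1 at the 5′ end), so that their first 16 bases are identical. miR-211-3p matches miR-204-3p at 14 of 21 positions, without the same seed. Of the 1247 miRNAs on the array, 1017 matched a RefSeq sequence by name. Among these, miR-204-5p and miR-211-5p were the 2 with the seed UCCCUUU, and no other miRNA shared the seed of miR-211-3p. The word seed relatives thus holds for the pair of 5p arms, not for miR-211-3p.

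The hairpins show where the 2 arms lie, with the 5p and then the 3p arm in capitals:
Mir204: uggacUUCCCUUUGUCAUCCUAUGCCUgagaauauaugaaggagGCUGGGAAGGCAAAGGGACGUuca
Mir211: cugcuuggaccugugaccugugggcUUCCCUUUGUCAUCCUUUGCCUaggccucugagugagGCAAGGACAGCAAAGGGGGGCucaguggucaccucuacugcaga
Mir204 lies at chr19:22750605-22750672 (GRCm38.p6, plus strand), within the span of Trpm3. Mir211 lies at chr7:64205806-64205911 (plus strand), within the span of Trpm1. Trpm3 and Trpm1 both encode cation channels of the TRPM family. The miRNAs come from 2 separate genes, and both arms of miR-211 are cut from 1 precursor.

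The signal of a miRNA on an array was the mean of its background-subtracted probe signals, divided by the 75th percentile of the array, taken over the 293 miRNAs that every array detected. This ratio is called the scaled signal below. A floor of 0.0223, or -5.49 on the log2 scale, was set from the signal of undetected miRNAs. A miRNA counts as detected where Agilent's software flags it so. The P4 arrays detected 325 to 384 miRNAs and the P5 arrays 367 to 419, and no spot was saturated. The divisor lay between 186 and 382 intensity units for P4 and between 315 and 526 for P5. Precision is limited by having 3 arrays a group.

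miR-204-5p was detected on each of the 3 P4 arrays and on none from P5. Its scaled signal was 1.26, 1.48 and 1.06 on P4 replicates 1, 2 and 3. On P5 replicates 1, 2 and 3 it was 0.00856, 0.0170 and 0.0160, below the floor on each. The groups did not overlap, and P4 replicate 2 was the highest. All 120 spots of miR-204-5p on the P4 arrays were well above background by Agilent's flag, and 0 of 120 were on the P5 arrays. The mean log2 scaled signal in P4 was 0.33 ± 0.24 (SD, n = 3). Set against the floor, miR-204-5p was at least 56.3-fold higher in P4, or 51.8-fold to 61.2-fold without each P4 array in turn.

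miR-211-5p, the seed partner, had the same pattern of detection. Its scaled signal was 0.50, 0.585 and 0.471 on P4 replicates 1, 2 and 3. On the P5 arrays it was 0.00502, 0.0129 and 0.00928, again below the floor. Here too the groups did not overlap and P4 replicate 2 was the highest. In P4, 117 of 120 spots were well above background, and in P5 0 of 120. The mean log2 scaled signal in P4 was -0.95 ± 0.16 (SD, n = 3), and the miRNA was at least 23.2-fold higher in P4, or 21.8-fold to 24.3-fold without each P4 array in turn. These folds are ratios of means against the floor, so they leave out the spread between arrays and move with the floor chosen. With the floor at 2 times its value, the log2 differences were 4.81 for miR-204-5p and 3.54 for miR-211-5p, in place of 5.81 and 4.54. In RNA of sorted populations, fewer cells that hold a miRNA and less of it per cell cannot be told apart.

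miR-211-3p did not share this pattern. It was detected on all 6 arrays, with 120 of 120 spots well above background in each group. Its scaled signal was 0.874, 0.739 and 0.898 on P4 replicates 1, 2 and 3. On P5 replicates 1, 2 and 3 it was 0.853, 1.11 and 1.03. The groups overlapped, since P5 replicate 1 lay among the P4 arrays. The mean log2 scaled signal was -0.26 ± 0.15 in P4 and -0.012 ± 0.20 in P5 (SD, n = 3 each), a difference of -0.25 ± 0.14 (SE). The scaling bears on this value. Before scaling, its signal ran from 163 to 283 intensity units for P4 and from 324 to 508 for P5, without overlap, and the difference of the unscaled values was -0.90, where the median of all tested miRNAs stood at -0.64. In the authors' deposited table miR-211-3p was at -0.050, -0.039 and 0.039 for P4 and at 0.42, 0.68 and 0.58 for P5, on a log2 scale whose centring is only partly known. There the groups did not overlap either, and the difference was -0.58 beside a median of -0.43.

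**Figure D1:**
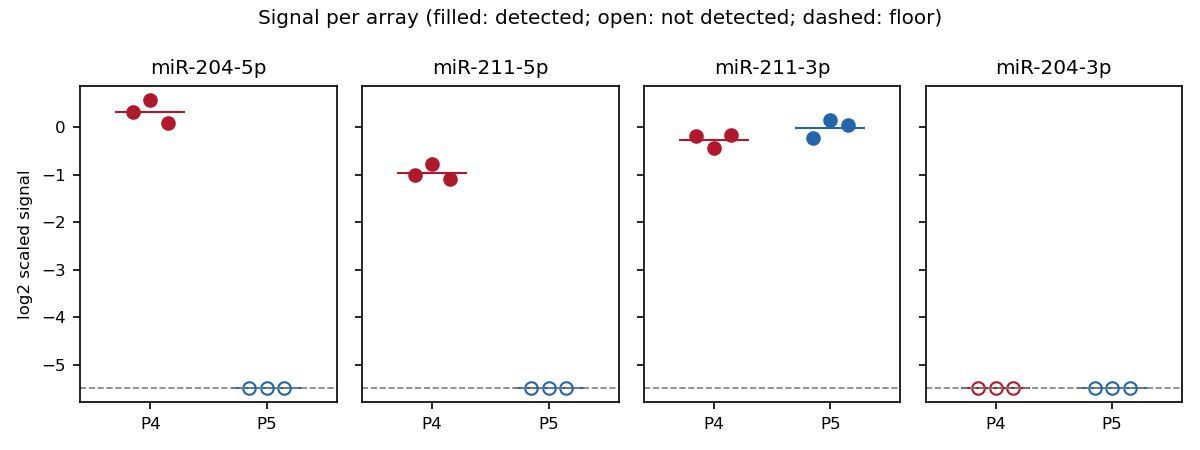
Log2 scaled signal (vertical axis) of the 3 miRNAs and of miR-204-3p on each of the 3 P4 and 3 P5 arrays. Points are arrays, short lines are group means, open points are arrays without detection, and the dashed line is the floor at -5.49. miR-204-5p and miR-211-5p stand well above the floor in P4 and at it in P5, miR-211-3p is near 0 in both populations, and miR-204-3p is at the floor on all 6 arrays.

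miR-204-3p was detected on no array, and 0 of its 120 spots in each group were well above background. Its mean signal per array lay between -0.481 and 6.3 intensity units. Of the 4 arms, the probes for miR-204-5p and miR-211-5p thus gave signal in P4, those for miR-211-3p in both populations and those for miR-204-3p in neither.

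All 3 miRNAs passed the filter for the test across miRNAs, detection on all 3 arrays of at least 1 group, as did 370 in all. Detection throughout P4 with none in P5 was found for 9 of these, or 2.43%, and 2 of the 9 were miR-204-5p and miR-211-5p. Every P4 array lay above every P5 array for 76 of the 370, or 20.5%, and for 2 of the 3 miRNAs. The pair was chosen for this contrast, so these shares are given for scale. The other 7 were miR-1a-3p, miR-133a-3p and miR-133b-3p, which are miRNAs of muscle, miR-143-5p, a miRNA of contractile cells, and miR-139-5p, miR-218-5p and miR-338-3p. Their bounds ran from at least 4.17-fold for miR-133a-3p to at least 17.3-fold for miR-1a-3p.

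**Figure D2:**
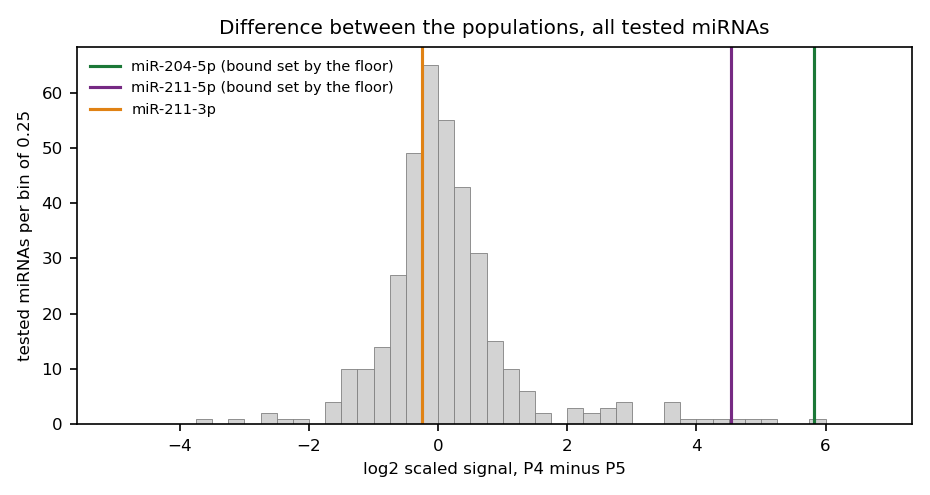
Number of tested miRNAs (vertical axis) by their difference in log2 scaled signal between P4 and P5 (horizontal axis, bins of 0.25), for all 370. Coloured lines mark miR-211-3p at -0.25, miR-211-5p at 4.54 and miR-204-5p at 5.81, the last 2 as distances to the floor.

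The probes of each miRNA were then examined apart. miR-204-5p had 2 probes of 20 spots each. Probe A_54_P2396 read 239, 579 and 301 intensity units on P4 replicates 1, 2 and 3, against 6.24, 8.56 and 5.96 on P5 replicates 1, 2 and 3. Probe A_54_P2397 read 228, 553 and 278 in P4 and 2.77, 7.01 and 4.11 in P5. The 2 probes went the same way, with log2 differences of 5.86 and 5.77 against the floor. Under a stricter limit, the lowest probe with every spot above background on the same array, the bounds were at least 20.2-fold and 19.1-fold.

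miR-211-5p had 4 probes of 10 spots each. A_54_P1469, for example, read 125, 307 and 172 intensity units on the P4 arrays, against 4.46, 8.55 and 5.59 on those of P5. A_54_P1467 and A_54_P1468 read 107 to 289 in P4 and under 8 in P5. A_54_P1466 read 22.6, 55.9 and 33.4 in P4 and -0.987, 2.02 and 0.0189 in P5, and 27 of its 30 P4 spots were well above background. Their log2 differences against the floor were 2.54 for A_54_P1466 and 4.67, 4.91 and 4.97 for the others, all in 1 direction. Under the stricter limit the bounds were at least 2.03-fold, 8.88-fold, 10.5-fold and 10.9-fold. Every probe was at the floor in P5, so these differences and bounds follow how bright each probe was in P4. They do not show whether the difference between the populations varied by probe.

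On P4 replicate 3, 1 spot of A_54_P1468 stood at 11020 intensity units beside a mean of 173 for the other spots of that probe. Agilent's software flagged it as an outlier, and it was left out. With flagged spots kept, the difference of miR-211-5p was 4.98 in place of 4.54.

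miR-211-3p had 2 probes of 20 spots each, which gave log2 differences of -0.25 and -0.25. Over the 8 probes, the median coefficient of variation between the spots of a P4 array was 4.05% to 15.9%, the highest for A_54_P1466. Spots on an array are repeat readings of 1 sample, not replicates.

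**Figure D3:**
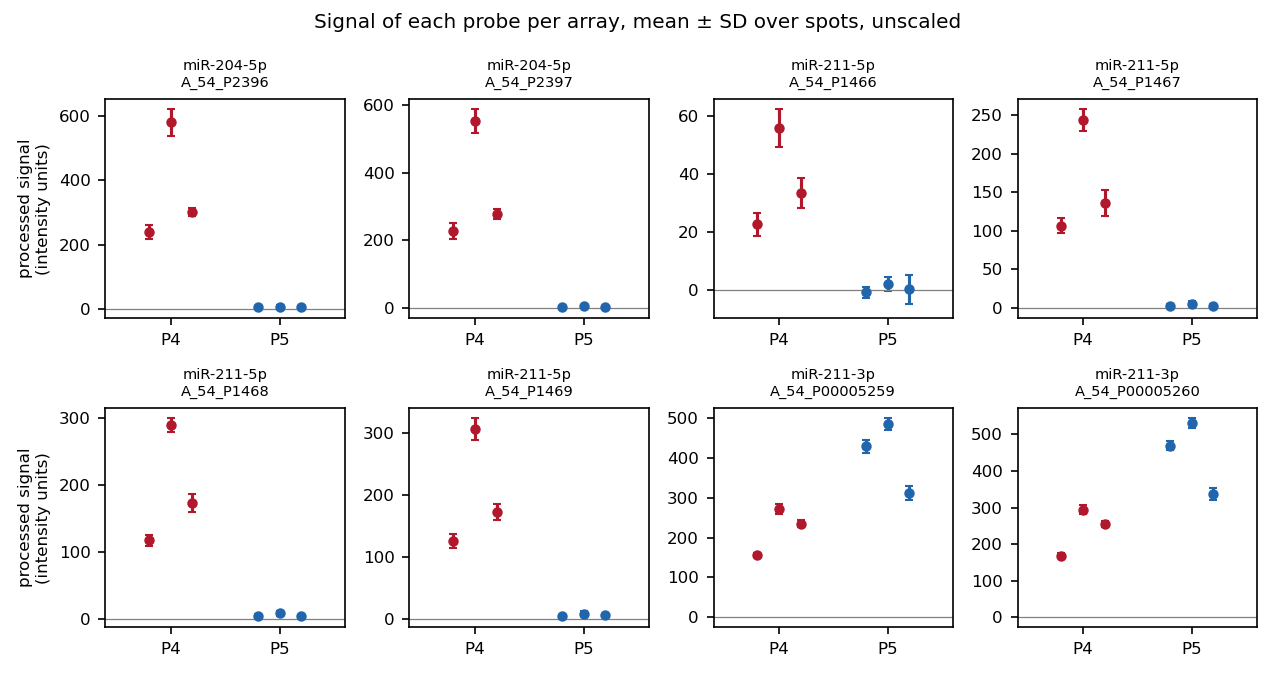
Processed signal in intensity units before scaling (vertical axes, each on its own scale) for the 8 probes of miR-204-5p, miR-211-5p and miR-211-3p. Points are arrays, in the order of replicates 1 to 3 within P4 and P5, and bars are the SD over spots. The 6 probes of the 5p arms read near 0 on all P5 arrays, and both probes of miR-211-3p read higher in P5 before scaling.

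The pair differs by 1 base, so a probe for one could also bind the other, and the files do not give the probe sequences. The course of each probe over the P4 arrays, after scaling, is given here. Over the 3 P4 arrays, miR-204-5p deviated from its own P4 mean by 0.0021, 0.24 and -0.24 on the log2 scale, on replicates 1, 2 and 3. miR-211-5p deviated by -0.047, 0.18 and -0.13, in the same order of arrays with a smaller spread. Its probes A_54_P1467 and A_54_P1469 were lowest on replicate 3, as were both probes of miR-204-5p. A_54_P1466 and A_54_P1468 each deviated by -0.090, 0.17 and -0.084, so they were slightly lower on replicate 1. miR-211-3p deviated by 0.068, -0.17 and 0.11, lowest where the 5p arms were highest. After scaling, all 6 probes of the 5p arms were highest on P4 replicate 2, and both probes of miR-211-3p were lowest there. Before scaling, the probes of miR-211-3p were highest on that array too. They read 156, 271 and 235 intensity units (A_54_P00005259) and 169, 294 and 256 (A_54_P00005260) on replicates 1, 2 and 3.

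The root mean square distance between the deviations of miR-204-5p and miR-211-5p was 0.077 over the 3 P4 arrays. Among the 308 other tested miRNAs detected on all P4 arrays, miR-211-5p was the tenth nearest to miR-204-5p, where the median distance was 0.30 and that of miR-211-3p 0.31. The 5 nearest were miR-5131, miR-101b-3p, miR-19b-3p, miR-6407 and miR-1949, at 0.0085 to 0.051, and none of them was detected on P4 alone. Thus 9 other miRNAs lay nearer to miR-204-5p than miR-211-5p did, while the median candidate lay farther. Whether the probes of the pair read each other's miRNA was not tested, so the signal of the miR-211-5p probes does not by itself show that both miRNAs are present.

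**Figure D4:**
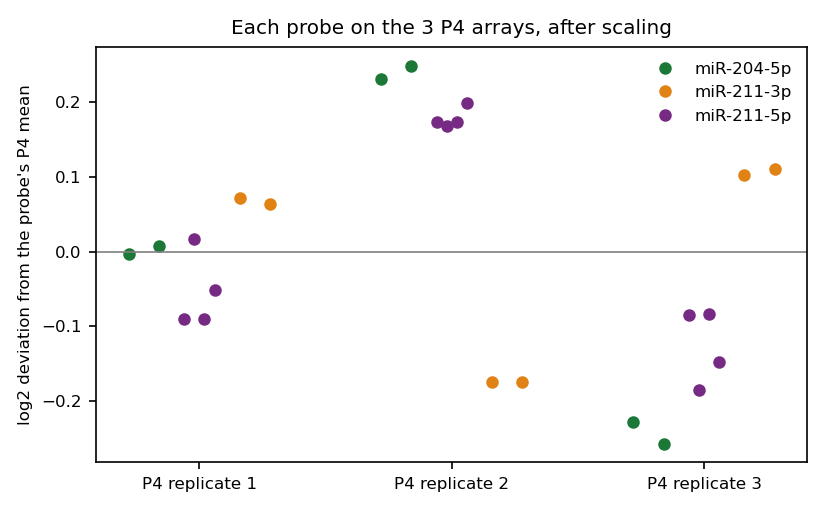
Deviation of each probe from its own mean over the P4 arrays (vertical axis, log2 scale, after scaling) on P4 replicates 1, 2 and 3. Points are probes, coloured by miRNA. The probes of miR-204-5p and miR-211-5p are above their mean on replicate 2 and below it on replicate 3, and those of miR-211-3p go the other way.

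As background, both arms of a hairpin come from 1 precursor, and often 1 of them is kept at a far higher level. For miR-211 the log2 difference between the populations was 4.54 or more for the 5p arm and -0.25 for the 3p arm, a gap of 4.79 at the floor used. Pairs were formed by RefSeq gene. This gave 33 distinct pairs with both arms tested, where hairpins with the same mature arms count once. Some miRNAs with both arms tested were not among the 33. Examples, with the 5p difference first, are miR-143 (3.96 and 5.01), miR-145a (4.90 and 4.30) and miR-150 (2.20 and -0.024). In the 32 pairs other than miR-211 the absolute gap had a median of 0.59. The widest was 2.95, for Mir338, where miR-338-5p was at 0.015 and miR-338-3p at 2.97. Next was 2.52, for Mir139, where miR-139-5p was at 2.57 and miR-139-3p at 0.044. In both, as in miR-211, 1 arm was detected on P4 alone and the other on all 6 arrays. The gap of miR-211 was 2.33 with normexp background correction and 11.0 with the authors' deposited values, so its size depends on how undetected signal is set. The gaps of the other pairs were not computed under other processing.

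miR-211-3p was set beside array miRNAs of like sequence. It shared a run of 12 bases with miR-6370, at positions 7 to 18 of both, shown here in capitals because it is the longest run that any of the 3 miRNAs shared with another of the 1017 sequences outside the 2 hairpins:
miR-211-3p: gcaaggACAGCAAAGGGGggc
miR-6370: gcaggaACAGCAAAGGGGaag
miR-6370 lies at chr6:19555438-19555458 (GRCm38.p6, plus strand), and the 2 sequences match at 16 of 21 positions, with A4G, G6A, G19A, G20A and C21G from miR-211-3p to miR-6370. The scaled signal of miR-6370 was 0.0596, 0.0518 and 0.0837 on P4 replicates 1, 2 and 3 and 0.0497, 0.0483 and 0.0721 on P5 replicates 1, 2 and 3. It was detected on 5 of the 6 arrays, and the groups overlapped, as they did for miR-211-3p. The longest run of miR-204-5p and of miR-211-5p with any of these sequences outside the 2 hairpins was 8 bases.

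miR-211-3p also holds a run of 6 G, the longest run of G among the 1017 sequences, and each 5p arm holds no more than 1 G in a row. Of 84 array miRNAs with a run of at least 4 G, 38.1% were detected on all 6 arrays, against 23.4% of all 1017. Of the 42 of them that were tested, 3 were higher and 0 lower in P4 by limma at an adjusted p under 0.05, with a median difference of -0.029, where 13.8% of all tested miRNAs were higher and 14.1% lower. What part this base composition has in the signal of miR-211-3p was not tested. By the same distance measure over the 6 arrays, the tested miRNAs nearest to miR-211-3p were miR-705, miR-1895 and miR-3072-5p (0.053 to 0.11); naming them was decided after their values were seen.

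Over the 6 arrays, the miRNAs with the pattern most like that of miR-204-5p were taken by root mean square distance, each relative to its own P4 mean. Of 369 candidates the 5 nearest were miR-143-3p at 0.62, miR-145a-5p at 0.71, miR-211-5p at 0.91, miR-145a-3p at 1.08 and miR-1a-3p at 1.21, where the median was 4.12. Within P4 the arrays were ordered otherwise. miR-143-3p deviated by 0.42 and miR-145a-5p by 0.53 on P4 replicate 1, where miR-204-5p lay at its mean. These distances rest mostly on the step between the populations, and for miRNAs at the floor in P5 they depend on it.

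Markers of the gates and of other cells were listed beside the pair, 33 of 34 of them on the array. The 3 miRNAs listed for basal and contractile epithelium were all higher in P4 by limma, with a median difference of 4.90. They were miR-205-5p at 2.88, miR-143-3p at 5.01 and miR-145a-5p at 4.90. The last 2 do not tell contractile epithelium from other contractile cells. The 5 of epithelium (the miR-200 family) were all detected in both populations and all lower in P4, with a median of -1.33. For scale, 13.8% of all tested miRNAs were higher and 14.1% lower by this test, and their median difference was 0.0013. Markers of other cells included miRNAs that were higher in P4. Both endothelial miRNAs were higher, with a summed scaled signal of 8.09 to 20.6 in P4 and 0.767 to 2.32 in P5. Of 6 leukocyte miRNAs 2 were higher, with a sum over the list of 1.11 to 3.61 in P4 against 0.730 to 1.01 in P5. Of 4 tested mesenchymal miRNAs 3 were higher (sum over the list 1.62 to 3.53 against 0.424 to 0.541), with miR-214-3p and miR-127-3p detected nowhere. All 3 tested skeletal muscle miRNAs were higher (sum over the list 0.465 to 0.790 against 0.0218 to 0.0317), with miR-206-3p detected nowhere. Of the neural and glial list miR-338-3p, the 1 member tested, was higher, by at least 7.81-fold, and the other 4 were detected nowhere. The sum over all 5, undetected members included, was 0.189 to 0.241 against 0.0552 to 0.0743. No erythroid miRNA could be tested. The directions of these medians held under every processing tried. For the 7 lists with a member detected on all 3 P4 arrays, the deviations of such members were averaged. By these means 3 lists were highest on replicate 1, 4 on replicate 3 and none on replicate 2, where miR-204-5p and miR-211-5p were highest. A single member could differ from its list. miR-146a-5p, of the leukocyte list, deviated by -0.052, 0.19 and -0.13 on P4 replicates 1, 2 and 3. It was the nearest of 308 miRNAs to miR-211-5p over these arrays. The part of these cell types in the signal of the pair was not tested, and the lists hold no miRNA particular to melanocytes.

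All 6 arrays lay on 1 slide and in 1 scan, with the P4 arrays and P5 replicate 1 in the first row. Against P5 replicate 1 alone the differences were 5.81 for miR-204-5p and 4.54 for miR-211-5p, as before, since every P5 array was at the floor. That of miR-211-3p was -0.032. The size of the 5p differences moved with the background. With normexp, which here added an offset of 50 intensity units to every signal, they were 3.08 and 2.13. With the authors' deposited values they were 11.7 and 10.4, where Agilent's summed signal stands at 0.1 for every undetected miRNA. All these values keep P4 above P5, which is largely fixed by the lack of detection on every P5 array.

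**Figure D5:**
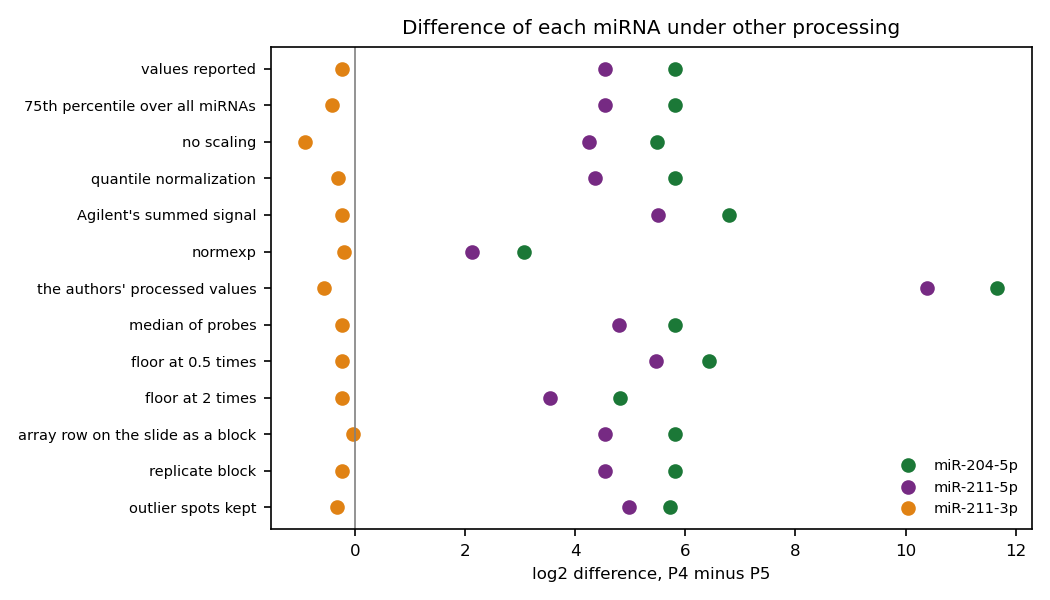
Log2 difference between P4 and P5 (horizontal axis) of miR-204-5p, miR-211-5p and miR-211-3p under the values reported and 12 other ways of processing (vertical axis). miR-204-5p and miR-211-5p stay above 2 in each, between 3.08 and 11.7 and between 2.13 and 10.4, and miR-211-3p stays between -0.90 and -0.032.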

How the data were processed

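The 6 single-colour arrays, 3 each of P4 and P5, were grouped by their titles. The deposited scanner files hold spot intensity, background-subtracted and not scaled between arrays, per the file headers, which name Agilent Feature Extraction 11.0.1.1 (11.0 in the submitters' processing notes) and the build mm9. The authors' deposited table holds log2 values, which follow the log2 of Agilent's summed signal to within 7.86e-06 once an offset per array and an offset per miRNA are allowed. Where the offsets per miRNA come from is unknown, so centring is only partly settled. The columns of P4 had medians of 0.42, -0.36 and -0.06, and those of P5 -0.56, -0.47 and 0.06.

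Outlier and control spots were left out, spots were averaged per probe and probes per miRNA, and the result was scaled by the array's 75th percentile among commonly detected miRNAs. For the floor, the 95th percentile of undetected signal was taken on each array, and then the median of the 6. A fold given as "at least" sets the P4 mean against, on each P5 array, whichever is highest of the floor, the array's lowest detected value and the value of the miRNA. The fit across miRNAs used limma 3.58.1 under R 4.3.3 on 370 miRNAs (lmFit, then eBayes, 2-sided, Benjamini-Hochberg, threshold 0.05). The fit alone was also run on simulated normal values. Those were drawn without a floor, so that run does not cover miRNAs at the floor, the scaling or the filter.

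The miRNAs described, the lists and the floor were chosen with earlier results of these data known. Most miRNAs named beside them followed a fixed rule. It took the opposite arm, miRNAs of equal seed, and miRNAs detected on all P4 and no P5 arrays. It also took the 5 nearest to miR-204-5p over 6 and over 3 arrays, and members of the lists. Named after their values were seen were miR-6370, miR-705, miR-1895, miR-3072-5p and miR-150-3p. So were both arms of Mir338 and of Mir139, as the widest gaps among the 32 other pairs. Alternatives were other scalings, signals, backgrounds, floors, filters and blocks, and leaving out each array.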

Additional observations from a re-analysis of the deposited data

How the results depend on the processing

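Without each array in turn, the difference was 5.69 to 5.94 for miR-204-5p, 4.45 to 4.60 for miR-211-5p and -0.36 to -0.16 for miR-211-3p, and 43 to 72 miRNAs were called higher and 40 to 56 lower in P4, against 51 and 52 with all arrays. Deviations of P4 and P5 arrays with the same replicate number correlated at -0.070, 0.37 and 0.086. These values cannot settle whether the numbers pair the arrays, since the sorts are not known. With a replicate block 54 were higher and 57 lower, with the 3 differences as reported. No processing tried turned a direction of the 3 miRNAs. Both 5p arms were undetected on every P5 array, which largely fixes theirs, and the difference of miR-211-3p shrank to -0.032 in 1 setting. miR-204-5p was at 5.49 with no scaling, 6.79 with Agilent's summed signal, 3.08 with normexp, 11.7 with the authors' processed values, and 6.44 and 4.81 with the floor at 0.5 and 2 times its value. For miR-211-5p these were 4.24, 5.51, 2.13, 10.4, 5.47 and 3.54, with 4.36 after quantile normalization, 4.79 with the median of probes and 4.98 with outlier spots kept, an alternative chosen after seeing the data. miR-211-3p was at -0.90 with no scaling, -0.58 with the authors' values and -0.032 with slide row as a block. The floors set the distances of the 5p arms by construction, as does the 0.1 that stands for undetected miRNAs behind the authors' values. The offset of 50 intensity units under normexp also narrows ratios of high to low signal by construction. With slide row as a block, P4 is compared with P5 replicate 1, the P5 array in its row. For the other settings the cause was not tested. Called higher and lower were 23 and 77 with no scaling, 31 and 81 with the authors' values, 29 and 23 with slide row as a block, 25 and 22 with no filter, and 55 and 25 with normexp. The median of all tested miRNAs moved from 0.0013 to -0.64 with no scaling, -0.43 with the authors' values, -0.17 when scaled over all miRNAs, -0.13 after quantile normalization and 0.29 with normexp. For the summed signal the floor was the median over arrays of the lowest detected value. Scaling and the filtered list were kept when an array was left out.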
